A study of Mus musculus with 8 samples.

Results

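Connexin43 (Gja1) and 9 junction genes of the intercalated disc (Tjp1, Cdh2, Ctnnb1, Ctnna1, Jup, Dsp, Vcl, Nrap and Bves) were followed in neonatal mouse hearts that lacked connexin43 and in wildtype hearts. They were chosen by name, through the gene symbol of each array probe. Of the 10 genes 9 had a probe with that single symbol and entered the comparison, out of 7603 named genes measured, and Dsp is not analysed here. The 9 genes had 24 probes, of which 22 had a value on at least 3 arrays of each genotype, out of 16308 such probes.

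One group of hearts came from neonatal connexin43 null mice and the other from neonatal wildtype mice, both C57BL per the labels, which do not describe the null allele or state litters. Each of 8 two-colour cDNA arrays, 4 per genotype, carried Cy3-labelled cDNA pooled from 3 hearts beside Cy5-labelled cDNA of 1 reference prepared from adult C57BL tissues of both sexes, heart among them. Values are log2 ratios of heart over that reference, with the median of each array set to 0. A difference is the null mean minus the wildtype mean, so that a negative one means a lower value in null hearts.

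Heart muscle cells are joined end to end at the intercalated disc, which holds gap junctions, adherens junctions and desmosomes. Gap junctions made of connexin43 let current and small molecules pass from cell to cell. Adherens junctions tie cadherins through catenins and vinculin to actin, and desmosomes tie cadherins of their own through plakoglobin and desmoplakin to intermediate filaments. Mice without connexin43 are known to die at birth with an obstructed right ventricular outflow tract.

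Heart muscle markers mostly had ratios above 0, and wildtype replicate 1 and null replicate 3 stood apart from the other arrays. Spots with a value numbered 17879 to 20212 on null arrays and 12971 to 23929 on wildtype arrays. Wildtype replicate 1 had the fewest values, and its rank correlation with the rest was lowest at a median of 0.576, where no other array fell under 0.663. Values spread widest on wildtype replicate 1 (SD 0.61) and null replicate 3 (SD 0.60), against 0.43 to 0.51 on the other arrays. Null replicate 3 also had the lowest median of markers of other adult tissues, -3.04, where no other array fell under -2.62. The highest null readings of Nrap and of several probes below come from null replicate 3, and why was not tested. Of 10 measured heart muscle markers, 8 had a ratio above 0 on every array with a value, and the exceptions were Ttn and Mb. The direction of the ratio was itself taken in part from these markers, so their sign is no separate check. Precision is limited by the number of arrays, and over all features the standard error had a median of 0.14.

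Gja1 had the largest difference of the 9 genes and lay lower in null hearts. It read -0.29, 0.25, 0.12 and 0.22 in null replicates 1 to 4, against 1.04, 1.31, 0.99 and 0.79 in wildtype replicates 1 to 4. The groups did not overlap, and null replicate 1 was the lowest. The null mean was 0.076 ± 0.25 and the wildtype mean 1.03 ± 0.21 (SD, n = 4 each), a difference of -0.95 (SE 0.15, 95% interval -1.29 to -0.62), or a ratio in null hearts of 51.6% of that in wildtype. The exact two-sided permutation test gave p = 0.0286, the smallest value that 70 assignments allow, and limma across 11804 features gave an adjusted p of 0.340. By size the difference ranked 14 among those features. Gja1 had 1 probe, the cDNA clone AW546267, and where that clone lies within the gene, or against the deletion, was not analysed here, so that it tests the genotype labels only in part. Null hearts had a mean Gja1 ratio close to 0, which on centred arrays is the median of each array and need not be the level of the adult reference. What the probe bound in null hearts was not tested.

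**Figure D1:**
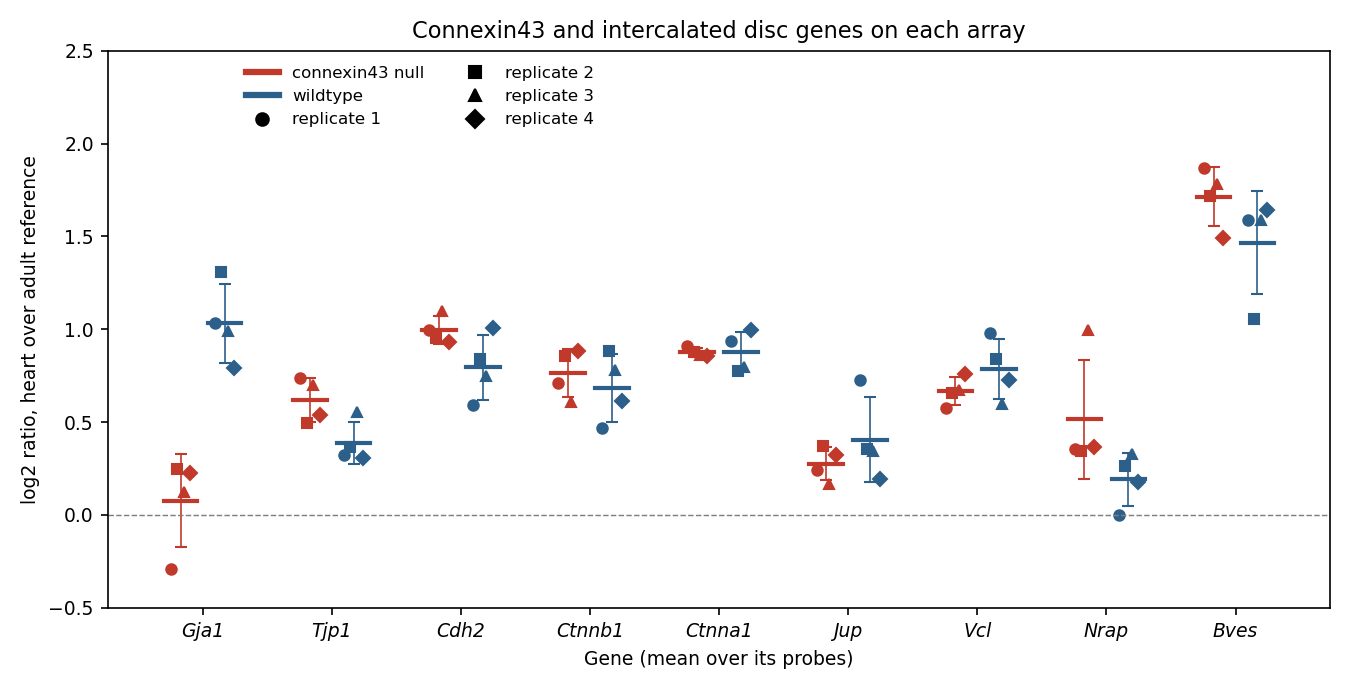
Log2 ratio of heart over adult reference (vertical axis) for each of the 9 genes on each array, with null hearts in red to the left of wildtype hearts in blue and replicates marked by shape. Bars are group means with their SD. The groups are apart for Gja1, with null values from -0.29 to 0.25 and wildtype values from 0.79 to 1.31, and overlap for all other genes except Nrap, which stands at 1.00 in null replicate 3.

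In the GRCm38.p6 assembly Gja1 lies on chromosome 10, from 56377300 to 56390419. The bases before its RefSeq start site are shown because, of the 9 genes, Gja1 had values that lay farthest apart between genotypes. Capitals mark the 1 match of TGANTCA, the core that AP-1 factors recognise, which reads alike on both strands and ends 12 bases before the start. In the same window 6.75% of 32851 RefSeq promoters hold a match, and a match is a description and no sign of binding. The window is chr10:56377050-56377299, plus strand.
Gja1: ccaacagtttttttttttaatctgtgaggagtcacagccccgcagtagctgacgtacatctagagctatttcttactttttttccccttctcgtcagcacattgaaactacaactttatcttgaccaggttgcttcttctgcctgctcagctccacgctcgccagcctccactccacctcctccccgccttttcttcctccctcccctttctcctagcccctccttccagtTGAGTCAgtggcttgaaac

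Over the 9 genes, 0 passed an adjusted p of 0.05 in limma, as did 0% of all features. At an unadjusted p under 0.05 the fit counted 1 gene, Gja1, against 8.23% of all features, 6.13% with a lower and 2.10% with a higher value in null hearts. Groups did not overlap for 2 genes, against 7.54% of features, namely Gja1 with lower values in null hearts (5.54% of features) and Nrap with higher values (2.00% of features). Leaving Gja1 aside, 5 of 8 genes had a higher mean in null hearts, against 40.9% of all features. The median difference of those 8 genes was 0.14, against -0.039 over all features. All 8 also had a mean ratio above 0, against 50.2% of features. A dependence on the mean ratio was fitted on each array as a smooth trend and was not itself tested. With that dependence removed the median of all features was 0.0022, and the genes had 0.21 for Tjp1, 0.12 for Cdh2, 0.039 for Ctnnb1, -0.078 for Ctnna1, -0.13 for Jup, -0.18 for Vcl, 0.32 for Nrap and 0.072 for Bves. Since none of the 8 passed the test, their differences are given as values with intervals.

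Tjp1 encodes the zonula occludens scaffold ZO-1, whose PDZ domain binds the carboxyl end of connexin43. Its gene mean read 0.74, 0.50, 0.70 and 0.54 in null replicates 1 to 4, against 0.32, 0.37, 0.55 and 0.31 in wildtype replicates 1 to 4. Only wildtype replicate 3 reached into the null range. The difference was 0.23 (SE 0.11, 95% interval -0.0097 to 0.47, limma adjusted p = 0.594). Null replicate 1 and wildtype replicate 3 had a value on 1 of its 2 probes, and the gene mean there comes from the fit of probe and array effects.

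The Tjp1 probes did not read alike. Clone AW549648 gave 0.51, 0.96 and 0.56 in null replicates 2 to 4, against 0.31, 0.23 and 0.27 in wildtype replicates 1, 2 and 4, with no overlap and a difference of 0.41 (SE 0.16). Clone AI323684, measured on all arrays, gave 0.72, 0.48, 0.43 and 0.52 in null hearts, against 0.33, 0.51, 0.54 and 0.35 in wildtype hearts, and the groups overlapped at a difference of 0.11 (SE 0.11). A further probe, W13290, missed the limit with values on 2 wildtype arrays. It read 0.67, 0.71, 1.51 and 0.67 in null hearts, against 0.98 and 0.87 in wildtype replicates 2 and 4, so that 3 of 4 null arrays lay below both wildtype arrays. With that probe included the Tjp1 difference was 0.14.

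Cdh2 encodes N-cadherin, the cadherin of the cardiac adherens junction. Its mean over 5 probes was 1.00, 0.96, 1.10 and 0.93 in null replicates 1 to 4, against 0.59, 0.84, 0.75 and 1.01 in wildtype replicates 1 to 4. Wildtype replicate 4 lay within the null range and the others below it. The difference was 0.20 (SE 0.11, 95% interval -0.052 to 0.45, limma adjusted p = 0.637), and without wildtype replicate 1 it was 0.13. All 5 probes had a higher mean in null hearts, from 0.11 on clone AA034594 to 0.31 on clone AW552340, where 42.5% of all probes did. These probes share the arrays and count as 1 gene. On AW552340 wildtype replicate 1 stood lowest at -0.33, against 0.14 to 0.52 on the other wildtype arrays and 0.28 to 0.63 on null arrays.

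Ctnnb1 encodes beta-catenin, which binds the cadherin tail and also carries Wnt signals. The gene mean was 0.71, 0.85, 0.61 and 0.88 in null replicates 1 to 4, against 0.47, 0.88, 0.78 and 0.61 in wildtype replicates 1 to 4, and the groups overlapped. The difference was 0.078 (SE 0.12, 95% interval -0.19 to 0.35), with 0.0050 without wildtype replicate 1 and 0.15 without wildtype replicate 2. In null replicate 1 and wildtype replicate 3, where probes lack values, the mean rests on the fit of probe and array effects.

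In null replicate 3 the Ctnnb1 probes went opposite ways. Clone W10023 read 1.77 there, against 1.03 and 1.06 in null replicates 2 and 4 and 0.59 to 1.10 on wildtype arrays. Clone AI573427 read -0.37 on the same array, against 0.65 to 0.98 on the other null arrays and 0.53 to 0.99 on wildtype arrays. The differences were 0.44 (SE 0.22) and -0.20 (SE 0.29) on these probes, while clone AW537646, with null values of 0.42 to 0.62 and wildtype values of 0.28 to 0.55, gave 0.10 (SE 0.12). Without null replicate 3, W10023 gave 0.20 and AI573427 gave 0.11.

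Ctnna1 encodes alpha-E-catenin, the link from beta-catenin to actin and vinculin. It read 0.91, 0.88, 0.86 and 0.86 in null replicates 1 to 4, against 0.93, 0.77, 0.80 and 1.00 in wildtype replicates 1 to 4. All null values lay inside the wildtype range. The difference was -0.00092 (SE 0.099), and the 95% interval of -0.22 to 0.22 bounds it on either side. Its 4 probes ranged from -0.11 to 0.068. Clone C79683 had the widest wildtype spread, with 1.81 in wildtype replicate 1 and 0.60 to 1.20 on the other wildtype arrays, against 0.90 to 1.10 on null arrays. On the other 3 probes wildtype replicate 1 read 0.47, 0.66 and 0.80.

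**Figure D2:**
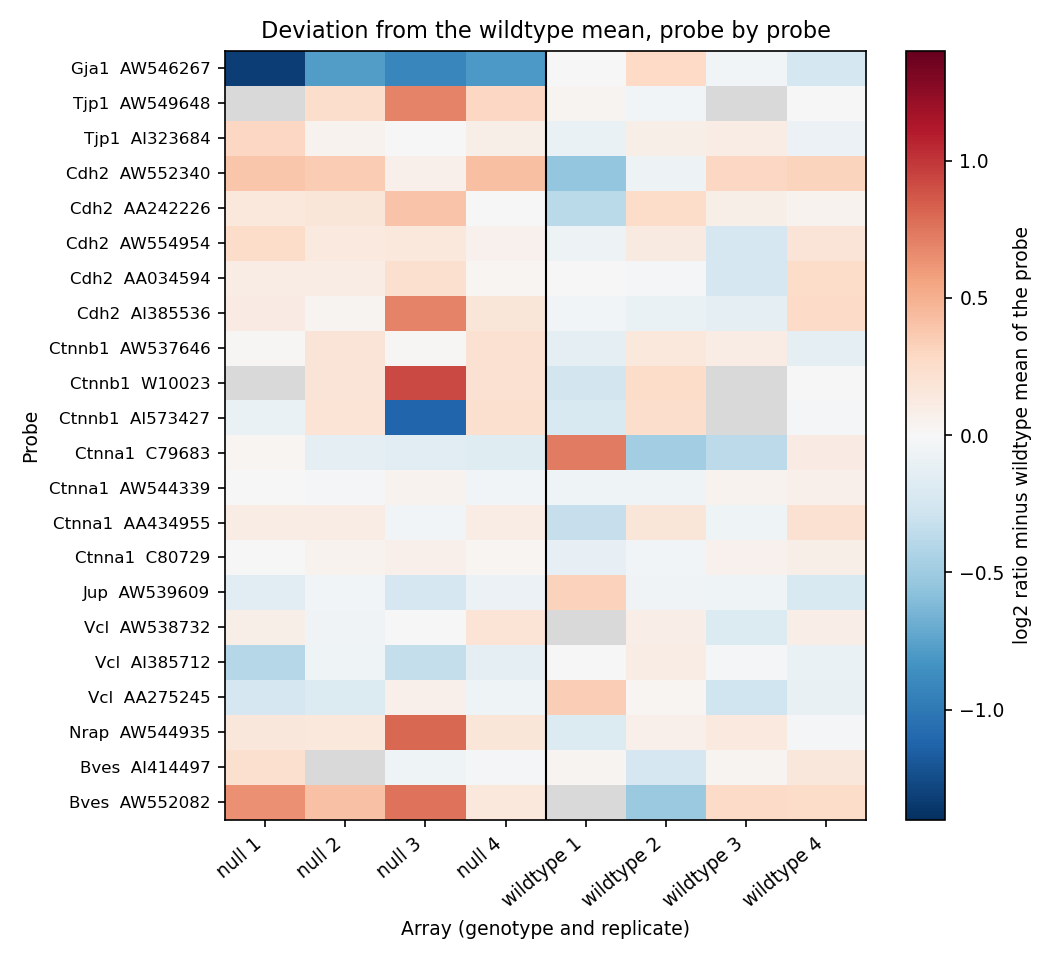
Log2 ratio of each of the 22 probes (rows, with gene and clone) on each array (columns, null arrays left of wildtype arrays), as the deviation from the wildtype mean of that probe, with red above and blue below it and grey for no value. The top row, Gja1, is below 0 on all 4 null arrays. Null replicate 3 holds opposite deviations for the Ctnnb1 clones W10023 and AI573427, which read 1.77 and -0.37 there.

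Jup encodes plakoglobin, which sits in both adherens junctions and desmosomes. Its single probe read 0.24, 0.37, 0.17 and 0.32 in null replicates 1 to 4, against 0.73, 0.36, 0.34 and 0.20 in wildtype replicates 1 to 4. Wildtype replicate 1 stood above all other arrays, and the remaining values overlapped. The difference was -0.13 (SE 0.13, 95% interval -0.41 to 0.15, limma adjusted p = 0.785), with -0.022 without wildtype replicate 1 and -0.20 without wildtype replicate 4.

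Vcl encodes vinculin, which reinforces the tie of catenins and talin to actin. It read 0.58, 0.66, 0.67 and 0.76 in null replicates 1 to 4, against 0.98, 0.84, 0.60 and 0.73 in wildtype replicates 1 to 4, where the value of replicate 1 lacks 1 of 3 probes. Wildtype replicates 1 and 2 lay above all null arrays and the other wildtype arrays within their range. The difference was -0.12 (SE 0.11, 95% interval -0.37 to 0.13), with -0.054 without wildtype replicate 1 and -0.19 without wildtype replicate 3. Its probes gave 0.053 on clone AW538732, -0.23 (SE 0.12) on clone AI385712 and -0.10 on clone AA275245. Clone AI385712 read -0.25, 0.090, -0.18 and 0.020 in null hearts, against 0.15, 0.26, 0.13 and 0.058 in wildtype hearts, and overlapped only through null replicate 2 and wildtype replicate 4.

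Nrap encodes a muscle protein that binds vinculin, talin and actin and is found where myofibrils insert at the disc. Its single probe read 0.36, 0.34, 1.00 and 0.37 in null replicates 1 to 4, against 0.00063, 0.26, 0.33 and 0.18 in wildtype replicates 1 to 4. The groups did not overlap, but null replicate 2 and wildtype replicate 3 lay close together, and null replicate 3 stood far above the rest. The difference was 0.32 (SE 0.16, 95% interval -0.024 to 0.67, limma adjusted p = 0.597), or 1.25-fold. It was 0.16 without null replicate 3, and 0.0997 without null replicate 3 and wildtype replicate 1 together.

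Bves encodes a membrane protein of the Popeye domain family that binds cyclic AMP. Its gene mean was 1.87, 1.72, 1.78 and 1.49 in null replicates 1 to 4, against 1.59, 1.06, 1.59 and 1.64 in wildtype replicates 1 to 4. Null replicate 4 fell inside the wildtype range, and wildtype replicate 2 stood lowest. Null replicate 2 and wildtype replicate 1 had 1 of 2 probes. The difference was 0.25 (SE 0.15, 95% interval -0.079 to 0.57, limma adjusted p = 0.654), and 0.079 without wildtype replicate 2. With a plain mean of the probes, in place of the fit of probe and array effects, it was 0.12.

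The Bves probes gave unlike differences, 0.045 (SE 0.14) on clone AI414497 and 0.49 (SE 0.22) on clone AW552082. AI414497 read 2.05, 1.76 and 1.79 in null replicates 1, 3 and 4, against 1.85, 1.59, 1.86 and 1.98 in wildtype hearts. AW552082 read 1.69, 1.45, 1.80 and 1.20 in null hearts, against 0.52, 1.31 and 1.30 in wildtype replicates 2 to 4. Clone AI464321 missed the limit with 2 wildtype values and lay near 0 on the arrays that measured it, at -0.0053, 0.089 and -0.32 in null replicates 2 to 4, against 0.030 and 0.078 in wildtype replicates 2 and 4. With that probe included the Bves difference was 0.15.

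Over the 22 probes limma called 0 at an adjusted p of 0.05, as it did 0% of all probes. At an unadjusted p under 0.05 it counted 3, the Gja1 probe with a lower value and Tjp1 AW549648 and Bves AW552082 with higher values in null hearts, against 7.97% of all probes, 5.64% with lower and 2.33% with higher values. In each of Tjp1 and Bves the other probe used did not reach that level. Groups did not overlap on 3 probes, those of Gja1 and Nrap and Tjp1 AW549648, against 7.51% of all probes, 5.38% with lower and 2.13% with higher values in null hearts.

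**Figure D3:**
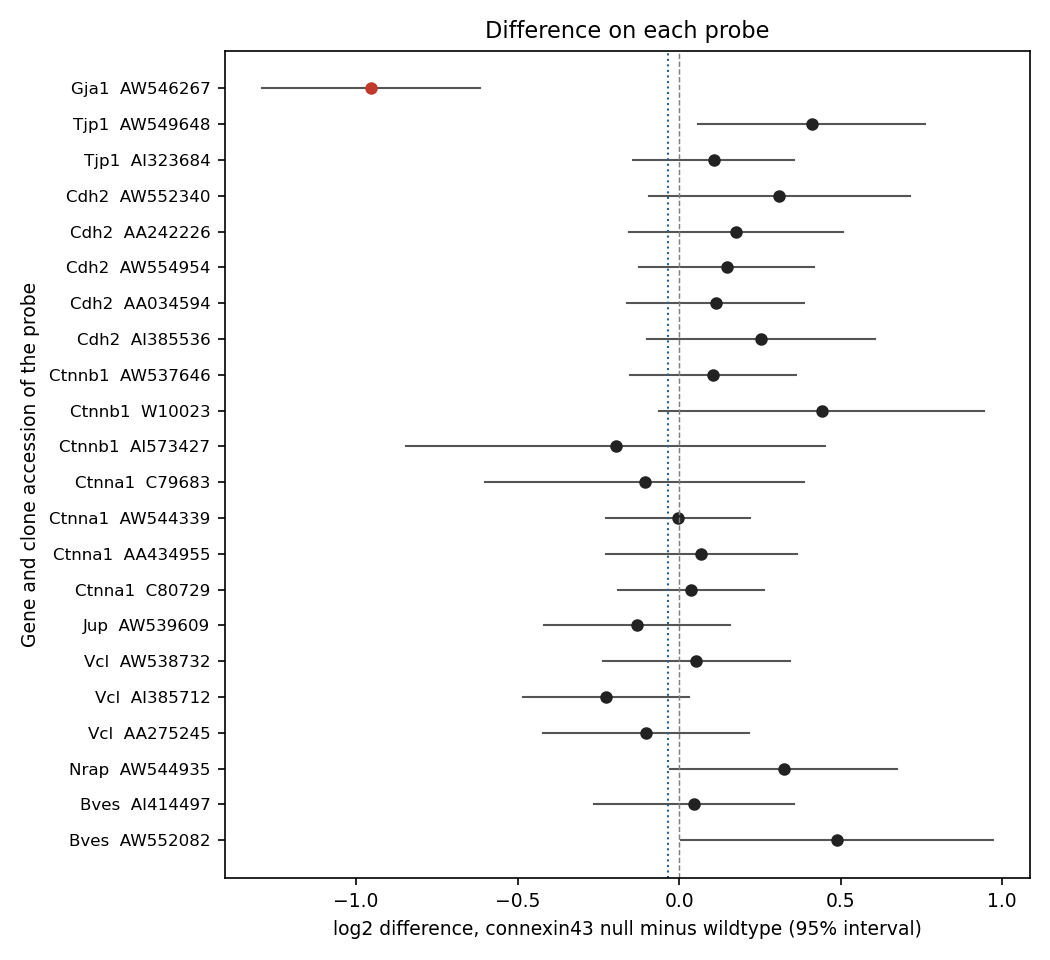
Log2 difference of null minus wildtype hearts (horizontal axis) on each of the 22 probes (rows), as points with 95% intervals from limma. The dashed line marks 0 and the dotted line the median over all probes. The Gja1 interval, -1.29 to -0.62, lies wholly below 0; those of Tjp1 AW549648 and Bves AW552082 lie above it and all others span it.

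Without centring of the arrays the median difference of all features was -0.18 in place of -0.039, and the values of the higher genes were smaller, 0.072 for Tjp1, 0.042 for Cdh2, 0.17 for Nrap and 0.089 for Bves. The other genes then lay lower too, at -0.081 for Ctnnb1, -0.16 for Ctnna1, -0.29 for Jup, -0.28 for Vcl and -1.11 for Gja1. The Vcl clone AI385712 reached -0.39, with an unadjusted p of 0.032 in limma and an adjusted p of 0.457. Over all the settings tried, leaving out arrays included, the Gja1 difference ranged from -1.11 to -0.83.

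The spread between arrays of a genotype was also set side by side. Each array carried its own pool, so variation between pools and between arrays cannot be told apart. The SD was smaller in null than in wildtype hearts for 6 of 9 genes, with medians of 0.12 in null and 0.17 in wildtype hearts. Over all features it was smaller in null hearts for 59.3%, with medians of 0.16 in null and 0.19 in wildtype hearts. Without wildtype replicate 1 it was smaller in null hearts for 8 of 9 genes, against 44.7% of 11215 features, with a wildtype median of 0.13 for the 9 genes. Null replicate 3, whose values also spread widely, was kept there. Of the 9 genes 6 combine more than 1 probe, which can narrow their SD beside features of a single probe. Ctnna1 had the narrowest spread, with an SD of 0.023 in null and 0.11 in wildtype hearts. No test was made of these spreads.

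The wider set of junction, anchoring and partner genes was described by role. Of 62 such genes measured, the 9 included, 37 had a higher and 25 a lower mean in null hearts, with a median of 0.029. In limma 0 had an adjusted p under 0.05, and 6 passed unadjusted, 3 with higher and 3 with lower values, Gja1 among the lower. Of all features 8.23% passed, 2.10% with higher and 6.13% with lower values. Only the total of the 62 genes lay close to that share. By direction the higher genes held a larger and the lower genes a smaller share than over all features, and this was not tested. Jup stands in both the adherens junction and the desmosome list. Of 15 gap junction channel genes only Gja1 had enough values. The counts by list stand beside 40.9% of all features with a higher mean in null hearts. Zonula occludens and tight junction genes had higher means for 6 of 8, with a median of 0.049, adherens junction genes for 5 of 11, with a median of -0.00092, and desmosome genes for 1 of 6, with a median of -0.058. Genes that anchor actin at the disc had higher means for 11 of 14, with a median of 0.14, which was 0.083 with arrays scaled to equal spread and 0.084 with the dependence on mean ratio removed. Disc membrane genes had 3 of 6 higher with a median of 0.019, and kinases and trafficking partners of connexin43 had 11 of 17 higher with a median of 0.030. Without centring every list median was below 0, from -0.19 for desmosome genes to -0.023 for anchoring genes.

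**Figure D4:**
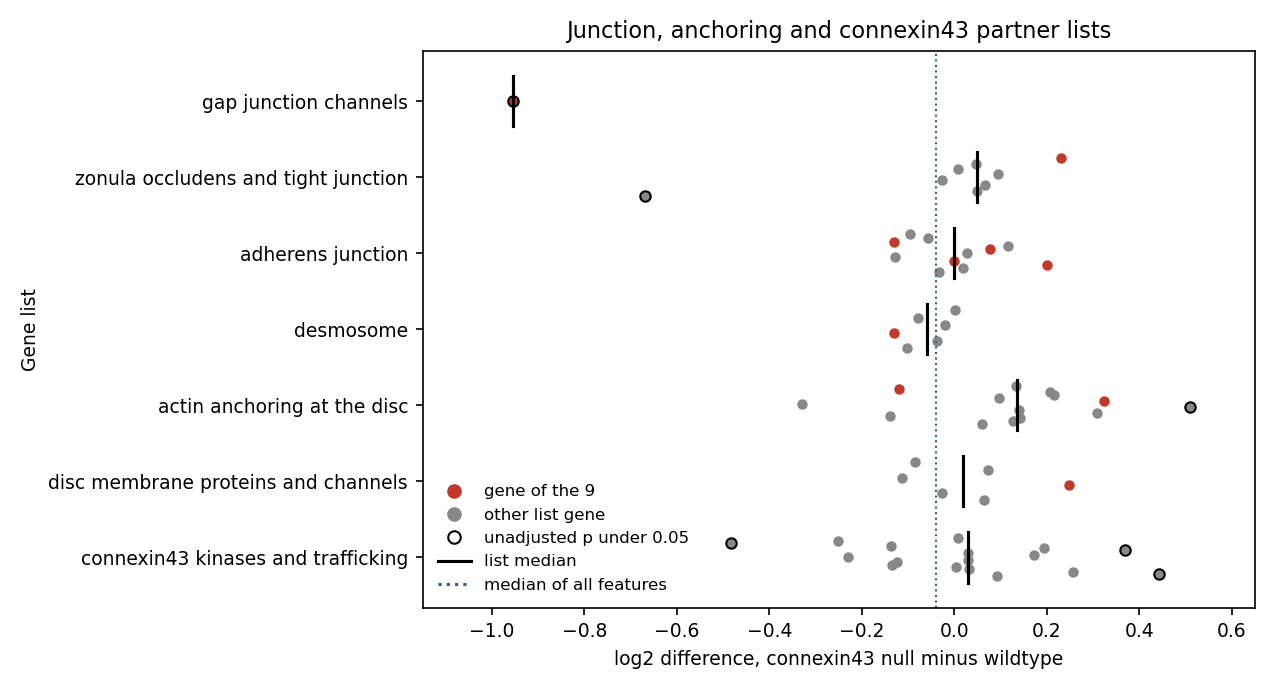
Log2 difference of null minus wildtype hearts (horizontal axis) for the genes of each role list (rows), with the genes described above in red, other list genes in grey, a black outline for an unadjusted p under 0.05, a bar for the list median and a dotted line for the median of all features, -0.039. Gja1 stands far left at -0.95, and the anchoring list has the rightmost median, 0.14.

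The list gene with the smallest p-value after Gja1 was Prkce, which encodes protein kinase C epsilon, one of the kinases known to phosphorylate connexin43. It read -0.67, -0.53, -0.52 and -0.53 in null replicates 1 to 4, against -0.046, -0.18, -0.18 and 0.086 in wildtype replicates 1 to 4. The groups did not overlap, and the difference was -0.48 (SE 0.11, limma adjusted p = 0.370). Leaving out any 1 array gave -0.52 to -0.43.

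Nedd4, which encodes a ubiquitin ligase that binds connexin43, read 0.92, 1.14, 1.03 and 1.01 in null hearts, against 0.64, 0.88, 0.28 and 0.82 in wildtype hearts. The groups did not overlap, with a difference of 0.37 (SE 0.14, limma adjusted p = 0.564), and 0.22 without wildtype replicate 3, the lowest array. Camk2d, which encodes the main calmodulin-dependent kinase of the heart, read 0.94, 0.83, 1.48 and 1.12 in null hearts, against 0.92, 0.31 and 0.73 in wildtype replicates 2 to 4. These overlapped, the difference was 0.44 (SE 0.19), and 0.27 without wildtype replicate 3.

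Among anchoring genes Ldb3, which encodes a Z-disc protein that binds alpha-actinin, read 0.80, 1.00, 1.33 and 1.19 in null hearts, against 0.56, 0.54, 0.10 and 1.07 in wildtype hearts. Wildtype replicate 4 reached into the null range, and the difference was 0.51 (SE 0.19, limma adjusted p = 0.564). Cgn, which encodes cingulin of the tight junction plaque, had -0.999, -0.91 and -1.25 in null replicates 1 to 3, against -0.44, -0.067 and -0.65 in wildtype replicates 2 to 4. Its groups did not overlap, and the difference was -0.67 (SE 0.18, limma adjusted p = 0.519). With the dependence on mean ratio removed, the differences were -0.40 for Prkce, 0.28 for Nedd4, 0.34 for Camk2d, 0.44 for Ldb3 and -0.44 for Cgn. Without centring they were -0.64 for Prkce, 0.21 for Nedd4, 0.38 for Camk2d, 0.35 for Ldb3 and -0.73 for Cgn.

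The other list genes named lay within 0.13 of 0 with centred arrays. The adherens genes Ctnnd1 (p120-catenin), Nectin3 and Ctnna3 (alpha-T-catenin) had 0.12 (SE 0.11), -0.095 (SE 0.12) and -0.13 (SE 0.18). The desmosome genes Dsc2, Pkp3 and Dsg2 had -0.10 (SE 0.13), -0.078 (SE 0.16) and -0.038 (SE 0.11). Among disc membrane genes Popdc2, a relative of Bves, had -0.11 (SE 0.11), Tmem43 had -0.084 (SE 0.11) and the ankyrin gene Ank2 had 0.065 (SE 0.11). Without centring Ctnna3 had -0.36, Popdc2 -0.27, Tmem43 -0.24, Pkp3 -0.24, Dsg2 -0.20, Dsc2 -0.17 and Nectin3 -0.16, while Ctnnd1 (-0.042) and Ank2 (-0.093) changed sign. With the dependence on mean ratio removed Popdc2 had -0.24, with an unadjusted p of 0.039 and an adjusted p of 0.751 in limma.

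Markers of cell types were read beside these values. In such pooled tissue, fewer cells of a type and less RNA per cell cannot be told apart. The mean level of 10 heart muscle markers, of 21 listed, was 0.60 to 0.94 on null arrays and 0.72 to 0.82 on wildtype arrays. Fibroblast markers, 6 of 11, had 0.53 to 0.67 on null and 0.32 to 0.62 on wildtype arrays, and endothelial markers, 6 of 10, had 0.63 to 0.77 on null and 0.39 to 0.99 on wildtype arrays. Each level is the mean of the markers with a value on that array, so a missing marker can shift it. Smooth muscle markers, 3 of 7, had -0.83 to -0.48 on null and -0.81 to -0.49 on wildtype arrays. The -0.48 is from null replicate 2, where Mylk had no value. Erythroid markers, 6 of 8, had 0.12 to 0.32 on null and -0.35 to 0.25 on wildtype arrays, and all 6 had a higher mean in null hearts, with a median difference of 0.21 and 0 past an unadjusted p of 0.05. Epicardial markers, 2 of 7, had -0.70 to -0.51 on null and -1.75 to -0.29 on wildtype arrays. The -1.75 is from wildtype replicate 1 and is Krt19 alone, since Msln had no value there. Macrophage markers, 3 of 7, had -0.98 to -0.65 on null and -1.07 to -0.68 on wildtype arrays. Higher means in null hearts were also found for 5 of 6 fibroblast, 5 of 6 endothelial, 4 of 10 heart muscle and 0 of 3 smooth muscle markers. The share over all features was 40.9%. In these cell type lists only the heart muscle gene Atp2a2 passed an unadjusted p of 0.05 in limma, at -0.24 (adjusted p = 0.594), where 8.23% of all features passed. The part of cell types in the differences given here was not tested.

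The genes whose profile was most like that of Gja1 were sought among 5676 other named genes with values on all 8 arrays, by the root mean square difference after the mean of each gene was taken off. The nearest were Trf (transferrin) at 0.21, Rasd2 (a small GTPase) at 0.23, Olfm1 (a secreted olfactomedin) at 0.24, Scgb1a1 (a secretoglobin of airway club cells) at 0.24 and Bop1 (a ribosome assembly factor) at 0.25. Their differences were -0.85, -0.69, -0.54, -0.59 and -0.60. Choosing genes by likeness to a profile that splits the genotypes fixes lower values in null hearts, so these are a description. All 5 had mean ratios below 0 in both genotypes, unlike Gja1. The 8 measured markers of other adult tissues in the reference, Scgb1a1 among them, all lay lower in null hearts, at a median difference of -0.33. Of all 11804 features 6973 lay lower. These markers had ratios far below 0, and their differences with the dependence on mean ratio removed are not given here. Whether these markers and the 5 genes move with Gja1 for a shared reason was not tested. With the dependence of differences on mean ratio removed, Gja1 had -0.99. Of the 9 genes, the 8 others were not among the nearest 5, with Vcl first at rank 925 and Bves last at rank 5522 among the 5676. Ranks of the wider list genes are not given here.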

How the data were processed

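Per the labels, heart cDNA was labelled with Cy3 and the reference with Cy5. The deposited values are log2 ratios per spot; scanner, background correction, spot filter and scaling by the authors: not given in the sources used here. The base was taken from the values: within blocks of 598 rows, 8347 of 31304440 differences equalled (within 1.5e-09) a base 2 logarithm of 2 whole numbers, each at most 120, divided, where base e gave 269 and base 10 gave 863. The direction is not stated in the labels. Heart was taken as numerator because heart muscle markers had medians of 0.57 to 0.81 and markers of other adult tissues -3.04 to -1.95. Dyes were not swapped, so that any dye bias stays in the ratios of both genotypes.

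Arrays were centred on their medians. Probes were named through the platform annotation, of 28704 probes 18511 with 1 symbol. Probes of a gene with values on at least 3 arrays per genotype were combined by fitting additive effects of probes and arrays. Null minus wildtype was fitted across all 11804 features, and across all 16308 probes, with limma 3.58.1 (lmFit, eBayes; R 4.3.3). Benjamini-Hochberg adjusted p-values were held to 0.05. All adjusted p-values come from limma. The permutation test counts assignments with at least the observed absolute difference of means. On simulated data with 200 changed features among 11804, limma recovered 0.5% at a log2 size of 0.5, 81.5% at 1 and 99% at 2. The simulated noise was drawn independently for each feature, without deviations shared across an array, and the number of changed features was set beforehand. These shares therefore check the fit and do not estimate what could be found on the real arrays. Figures were made with Python 3.11.15 and matplotlib 3.10.9. Promoter sequence is from RefSeq, GRCm38.p6, where 7 of 10 genes had an entry.

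Genes, lists and tests were chosen with earlier results of these data known. The text names all members, the list genes with an unadjusted p under 0.05 or else the 3 smallest p-values of a list, and the 5 genes most like Gja1. Alternatives were other centrings, quantile normalization, scaling, limits on missing values, probe averaging, eBayes settings, array weights, the replicate number as a block and each array left out. Added after seeing the data were leaving out wildtype replicate 1 with null replicate 3, and taking off the trend on the mean ratio. The labels do not say whether pools share litters, and p-values cover the variation among arrays, each with its own pool, alone.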

Additional observations from a re-analysis of the deposited data

Results flagged for a closer look

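Among the genes and probes named, 70 groups of 4 arrays were checked for an array far from the others, and 5 were found by Dixon's 95% critical value, which chance passes in about 1 of 20 groups. Nrap read 1.00 in null replicate 3, against 0.34 to 0.37 on the other null arrays. Bves read 1.06 in wildtype replicate 2, with 1.59 to 1.64 on wildtype replicates 1, 3 and 4. The Ctnna1 probe AA434955 read 0.75 in null replicate 3, against 0.89 on each other null array. Tmem43 read 0.11 in null replicate 1, against -0.17 to -0.13 on the other null arrays. Prkce read -0.67 in null replicate 1, against -0.53 to -0.52 on the other null arrays. What set these arrays apart was not tested.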

How the results depend on the processing

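No feature passed an adjusted p of 0.05 under any of the 22 alternatives, 8 of which left out 1 array. Gja1 kept a negative difference in all of them (-1.11 to -0.83), and its exact permutation p was 0.0286 without any 1 array and 0.1, the smallest that 3 arrays per genotype allow, without wildtype replicate 1 and null replicate 3. Features past an unadjusted p of 0.05 numbered 689 to 1024 with 1 array left out, 1392 without centring, and 614 of 8078 with values required on all arrays, where fewer were tested. The 9 genes past that level numbered 1 to 2 with 1 array left out (Tjp1 was added without wildtype replicate 3 and Cdh2 without wildtype replicate 4) and 2 with centring within blocks or with the replicate block (Nrap was added). Genes without overlap numbered 2 to 3 with 1 array left out and 1, Gja1, without centring, with quantile normalization, with scaling or with the trend taken off. With the replicate number as a block 728 features had an unadjusted p under 0.05 and Gja1 an adjusted p of 0.572 in limma. Deviations of same-numbered arrays from their group means correlated at -0.24 to -0.0049, and 0 of 4 correlated best with their own number, so that the numbers were not taken as pairs.

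Signs changed as follows, and the cause was not tested. Without centring these were Ctnnb1 (-0.081), Ctnnd1 (-0.042), Ank2 (-0.093), Tjp1 AI323684 (-0.052), Cdh2 AW554954 (-0.011) and AA034594 (-0.045), Ctnnb1 AW537646 (-0.054), Ctnna1 AA434955 (-0.090) and C80729 (-0.12), Vcl AW538732 (-0.0094) and Bves AI414497 (-0.10). With quantile normalization they were Ctnna1 C80729 (-0.0048), Vcl AW538732 (-0.12) and Bves AI414497 (-0.19). With scaling they were Nectin3 (0.044), Ctnna1 AA434955 (-0.010) and C80729 (-0.039), Vcl AW538732 (-0.12) and Bves AI414497 (-0.090). With the trend taken off they were Nectin3 (0.12), Ctnna1 AA434955 (-0.0012) and C80729 (-0.048), Vcl AW538732 (-0.087) and Bves AI414497 (-0.17). Centring within blocks gave Ctnna1 AW544339 (0.016), Vcl AW538732 (-0.031) and AA275245 (0.0031). Array weights gave Ctnna1 (0.021), Pkp3 (0.019), Ctnna1 C79683 (0.071) and AA434955 (-0.0055). The replicate block gave Ctnnb1 AI573427 (0.11) and Bves AI414497 (-0.032). The probe with the fewest missing values gave Dsg2 (0.029) and Popdc2 (0.046), and values on all arrays gave Dsg2 (0.029).

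With 1 array left out, or wildtype replicate 1 and null replicate 3 together, ranges that crossed 0 were -0.035 to 0.039 for Ctnna1, -0.20 to 0.014 for Jup, -0.26 to 0.022 for Ctnna3, -0.18 to 0.012 for Dsc2, -0.21 to 0.064 for Pkp3 and -0.094 to 0.015 for Dsg2. Among probes they were -0.024 to 0.26 for Cdh2 AA242226, -0.34 to 0.11 for Ctnnb1 AI573427, -0.27 to 0.15 for Ctnna1 C79683, -0.042 to 0.019 for Ctnna1 AW544339, -0.039 to 0.14 for Ctnna1 AA434955, -0.011 to 0.066 for Ctnna1 C80729, -0.042 to 0.10 for Vcl AW538732, -0.19 to 0.012 for Vcl AA275245 and -0.047 to 0.10 for Bves AI414497.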
